A study of Mus musculus with 6 samples.

Results

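The 10 genes commonly used to recognise reactive astrocytes, Gfap, Vim, Nes, Lcn2, Serpina3n, Timp1, Cp, Cd44, Steap4 and S1pr3, were taken by symbol from the 56884 genes of 2 single-cell libraries of the mouse cerebral cortex at postnatal day (P) 12. The label calls them pan-reactive, meaning that they are raised in astrocytes after different kinds of insult. Cells were barcodes with at least 1500 unique molecular identifiers (UMIs, 1 per captured transcript), of which the control library held 3237 and the Nodal iPCKO library 5008. A barcode was counted as an astrocyte when at least 4 of the 6 markers Aqp4, Slc1a2, Slc1a3, Gjb6, Aldoc and Mlc1 were detected, which gave 734 control and 833 iPCKO astrocytes. All 6 markers were found in 646 and 743 of these cells, and Gpr37l1, Ptprz1, Bcan, Ednrb and Fgfr3, which the rule did not use, were among the 10 leading genes of the class in both libraries. Another 4 of the 10 were markers of the rule itself.

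The study asked what signals of pericytes, the mural cells of capillaries, do in the postnatal brain. Nodal iPCKO mice carried floxed Nodal alleles and Pdgfrb(BAC)-CreERT2, a tamoxifen-inducible Cre driven in mural cells. The Nodal lox/lox control mice are labelled by the floxed alleles alone. Whether they carried the transgene is not stated, and if they lacked it, the transgene and the deletion cannot be told apart. Both groups had received 50 µg tamoxifen daily from P1 to P3, cells of 2 mice were pooled per library, the study used animals of either sex, and the sex of the mice in each library is not given. With 1 library per genotype no difference has a replicate check, and all intervals are 95% intervals that cover counting error only.

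Reactive astrogliosis is the response of astrocytes to injury, inflammation or loss of barrier function, in which cells enlarge and build more intermediate filaments. The classical genes of this response fall into filament proteins, secreted acute-phase and matrix proteins, and proteins of the membrane. Several of them are not specific to astrocytes, since vascular cells and fibroblasts make vimentin, nestin or ceruloplasmin without any injury.

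In the GRCm39 build, Gfap lies on the minus strand of chromosome 11 from 102778159 to 102791738, Serpina3n on chromosome 12 from 104372810 to 104380597, and Steap4 on chromosome 5 from 8010260 to 8032214. Timp1 on the X chromosome, from 20736316 to 20740976, overlaps Syn1 on the opposite strand, and Cp on chromosome 3, from 20011090 to 20063930, overlaps Hps3 on the opposite strand. The counting settings that the study lists name no option for strand, and whether reads of these pairs were kept apart was not tested.

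The promoter windows of the members, 250 bases before and 50 after the RefSeq gene start (GRCm38.p6), were searched on both strands for sites of factors that act in astrogliosis. The STAT motif TTCNNNGAA was found in the windows of Gfap and Steap4 and in 8.3% of all 32851 windows, and the AP-1 motif TGANTCA in that of Cp and in 7.81% of all windows. The NF-kB motif (0.411% of all windows) and the SMAD motif GTCTAGAC (0.213%) were in none of the 11 windows of the 10 members. The windows of Gfap (chr11:102897151-102897450, minus strand), a filament gene used to mark reactive astrocytes, and of Steap4 (chr5:7960222-7960521, plus strand) are shown 5′ to 3′ with the STAT match in capitals. The window of Serpina3n (chr12:104406458-104406757, plus strand) follows in the same direction and had no match to any of the 4 motifs. Serpina3n was the member with the most UMIs among those past 1.5-fold in astrocytes.
Gfap: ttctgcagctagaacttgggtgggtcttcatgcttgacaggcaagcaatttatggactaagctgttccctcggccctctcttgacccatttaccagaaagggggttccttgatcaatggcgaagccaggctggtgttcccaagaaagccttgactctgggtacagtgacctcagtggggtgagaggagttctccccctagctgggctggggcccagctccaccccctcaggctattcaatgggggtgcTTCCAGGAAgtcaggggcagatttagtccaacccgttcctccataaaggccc
Steap4: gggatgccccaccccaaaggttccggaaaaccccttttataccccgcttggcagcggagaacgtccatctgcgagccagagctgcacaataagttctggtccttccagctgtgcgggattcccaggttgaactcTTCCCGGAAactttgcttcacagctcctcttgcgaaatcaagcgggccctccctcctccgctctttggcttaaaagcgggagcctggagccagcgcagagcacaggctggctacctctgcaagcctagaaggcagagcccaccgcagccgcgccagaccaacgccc
Serpina3n: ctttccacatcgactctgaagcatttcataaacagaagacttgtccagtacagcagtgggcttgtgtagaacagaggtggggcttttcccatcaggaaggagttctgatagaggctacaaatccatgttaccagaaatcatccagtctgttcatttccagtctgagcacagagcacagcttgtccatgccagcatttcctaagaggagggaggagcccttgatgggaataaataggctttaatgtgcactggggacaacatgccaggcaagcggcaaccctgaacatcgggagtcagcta
The matches began at base -2 from the gene start in Gfap (TTCCAGGAA) and at base -116 in Steap4 (TTCCCGGAA). A match of letters describes the window and does not show that a factor bound there.

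Nodal, the targeted gene, a ligand of the TGF-beta family, had 187 UMIs in the 299 pericytes of the control library, at 102 (87.8 to 118) CPM, its UMIs per 1000000 UMIs of the class. None was found in the 435 iPCKO pericytes. Setting this count of 0 to 3 UMIs over the class gives a level 93.1-fold lower. The interval of the log2 ratio of iPCKO over control reached up to -6.23. Which exons lie between the lox sites, and whether the captured 3′ end lies among them, was not analysed here. The libraries held 33889545 and 54791946 UMIs, the median astrocyte had 10342 and 11108 UMIs, and 21 barcodes occurred in both libraries, where 17.8 would be expected from independent draws, none of them an astrocyte in both. Free RNA, measured in barcodes of 10 to 100 UMIs, was estimated to make up 3.82% of the UMIs of control and 6.27% of those of iPCKO astrocytes. The estimate rests on microglia and endothelial markers and kept the astrocytes that also met another rule. Of these, 6 in control and 12 in iPCKO met the endothelial rule, 5 and 11 the microglia rule, and their part was not tested. In other types the estimate for control and iPCKO was 3.09% and 2.81% (endothelial cells), 3.43% and 2.88% (pericytes) and 2.92% and 2.15% (microglia). In neurons it was 1.39% and 1.39%, and in smooth muscle cells 3.54% and 4.53%.

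In astrocytes, the summed levels of Gfap and Vim were nearly the same in the 2 libraries, Serpina3n was 1.78-fold higher in Nodal iPCKO, and Timp1 and S1pr3 were higher on few UMIs. Cp was lower, on 50 and 29 UMIs, but had 0.81 and 0.80 CPM without the astrocytes that also met the rule of another type. Of the 8 members with at least 20 UMIs over both libraries, 3 lay more than 1.5-fold higher (Serpina3n, Timp1 and S1pr3), beside 6.46% of the 15826 genes with that many UMIs, and 1 lay more than 1.5-fold lower (Cp), beside 7.7%. The median log2 ratio of iPCKO over control was 0.30 over the 8 members and 0.00 over all these genes. Lcn2 and Steap4 had fewer than 20 UMIs in astrocytes. Timp1, with 5 UMIs in control and 22 in iPCKO, reached this minimum only through the library where it was higher. Its place among the higher members is thus partly set by the minimum. The plots of the levels by cell type and of the ratios in the 4 largest cell types show these values.

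**Figure D1:**
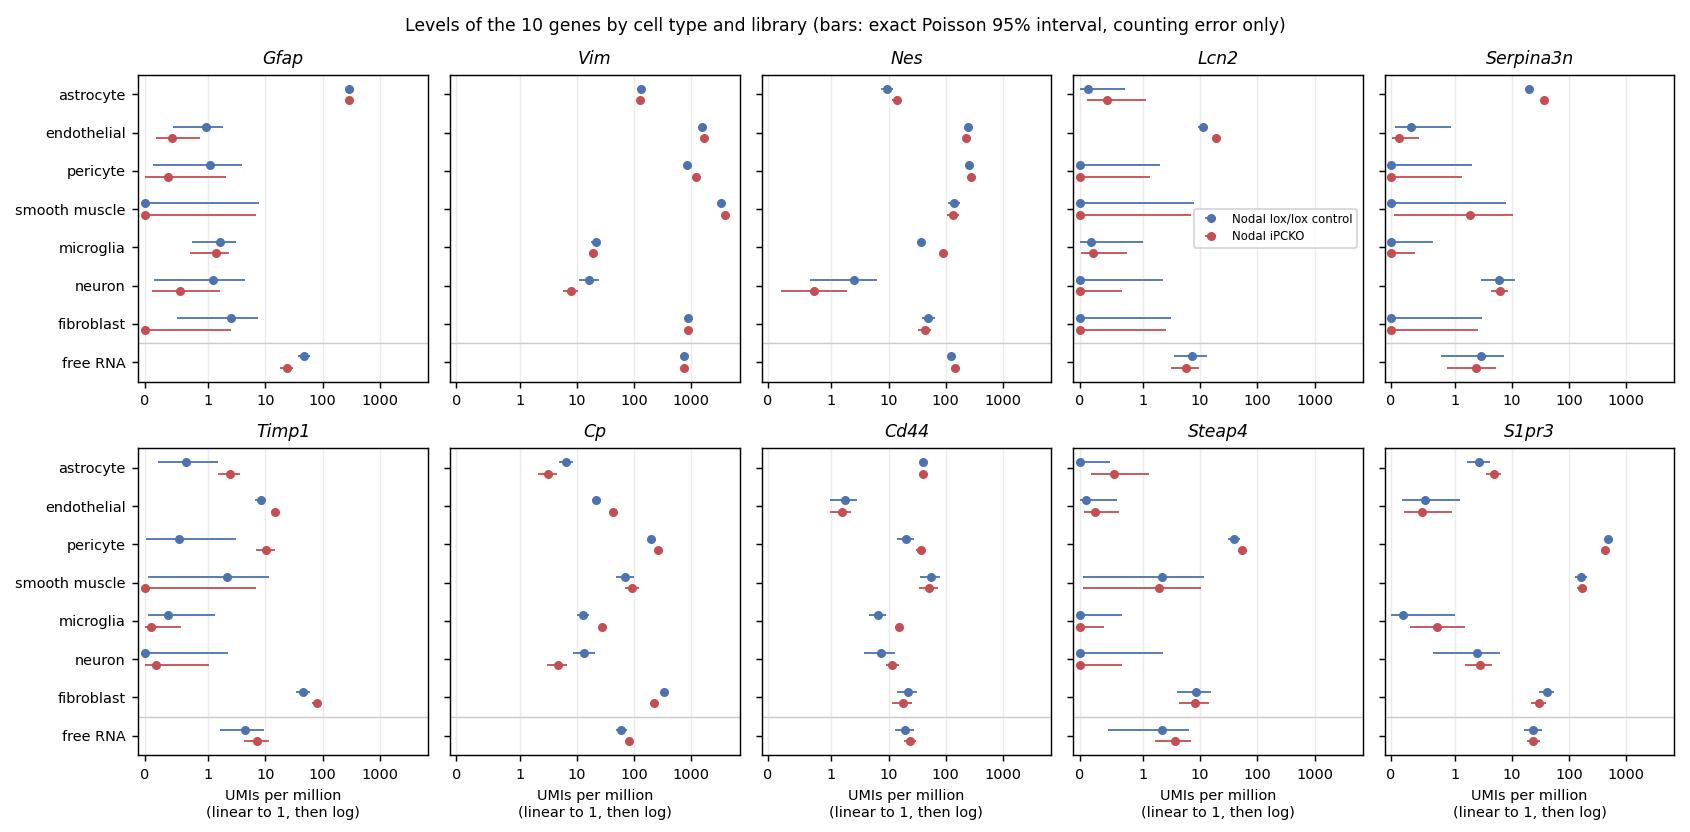
Level of each of the 10 genes (x axis, CPM, linear to 1 and then logarithmic) in 7 cell types and in free RNA (y axis), with the control library in blue, Nodal iPCKO in red and bars for the exact Poisson 95% interval. Gfap and Serpina3n have their highest level in astrocytes, whereas Vim, Nes, Timp1, Cp, Steap4 and S1pr3 are higher in vascular, mural or fibroblast cells.

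**Figure D2:**
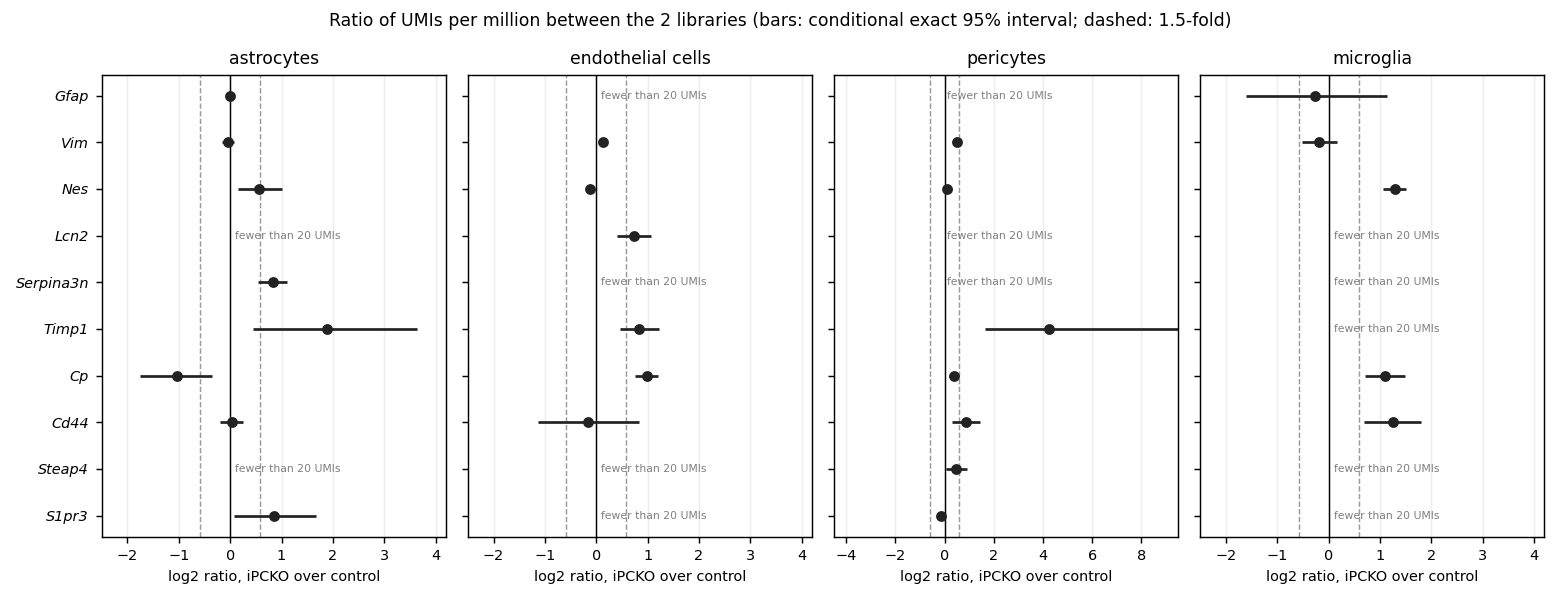
Log2 ratio of iPCKO over control (x axis) of each member (y axis) in astrocytes, endothelial cells, pericytes and microglia, with the conditional exact 95% interval; dashed lines mark 1.5-fold and the interval of Timp1 in pericytes runs past the axis. Gfap and Vim sit at 0 in astrocytes, and Nes, Cp and Cd44 sit near 1 in microglia.

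Among the filament genes, Gfap, the intermediate filament protein of astrocytes, had 295 (283 to 308) CPM in control and 295 (284 to 307) CPM in iPCKO astrocytes, from 2293 and 2729 UMIs. The log2 ratio was -0.00 (-0.08 to 0.08). The same sum was spread over more cells in iPCKO: a Gfap UMI was found in 410 of 734 control astrocytes (55.9%, 52.2 to 59.5) and in 542 of 833 iPCKO astrocytes (65.1%, 61.7 to 68.3). With every cell thinned to 1500 UMIs the shares were 22.4% (19.4 to 25.5) and 27.2% (24.3 to 30.4), a difference of 4.86 percentage points (0.51 to 9.23). In microglia, which should lack Gfap, the share was 0.93% of control and 0.57% of iPCKO cells, whose median depths were 6167 and 6429 UMIs.

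The distribution of Gfap over astrocytes was flatter in the iPCKO library. The median astrocyte had 83.3 CPM in control and 127 CPM in iPCKO, and the 90th percentile was 643 and 780 CPM. These percentiles were not thinned, and at median depths of 10342 and 11108 UMIs the medians rest on very few Gfap UMIs per cell. At the 99th percentile the order was the other way round, with 3799 in control and 3351 CPM in iPCKO. The 10% of astrocytes with the most Gfap UMIs held 66.0% of all Gfap UMIs of the class in control and 51.8% in iPCKO. When every cell was given equal weight, the log2 ratio of the mean was 0.13. Several regional types of astrocytes express Gfap in the healthy brain, among them those of the pial surface and the white matter. In thinned cells with a Gfap UMI, Igfbp5 was found in 28.9% (22.3 to 36.7) of control and 21.4% (16.3 to 27.4) of iPCKO cells, against 12% and 7.18% of those without one. Thbs4 was found in 5.84% and 6.85% of the cells with Gfap, against 0.33% and 0.68% of those without. Over the whole class Igfbp5 had 185 CPM in control and 113 CPM in iPCKO (log2 ratio -0.70, -0.82 to -0.59), and Myoc, a gene of astrocytes at the pial surface, had 27 and 11 UMIs. These were the 2 of 6 listed pial and white matter genes that lay more than 1.5-fold lower, and none lay as much higher, beside 7.7% and 6.46% of all genes. The 6 fibroblast markers, none of them at 0, together had 202 CPM in control and 120 CPM in iPCKO astrocytes, and their part in these values was not tested. Thbs4 had 14.8 and 14.6 CPM, Id3 had 455 and 565 CPM, and the 6 genes together had 1126 and 1082 CPM with a median log2 ratio of -0.15. The part of regional cells in the Gfap values was not tested.

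**Figure D3:**
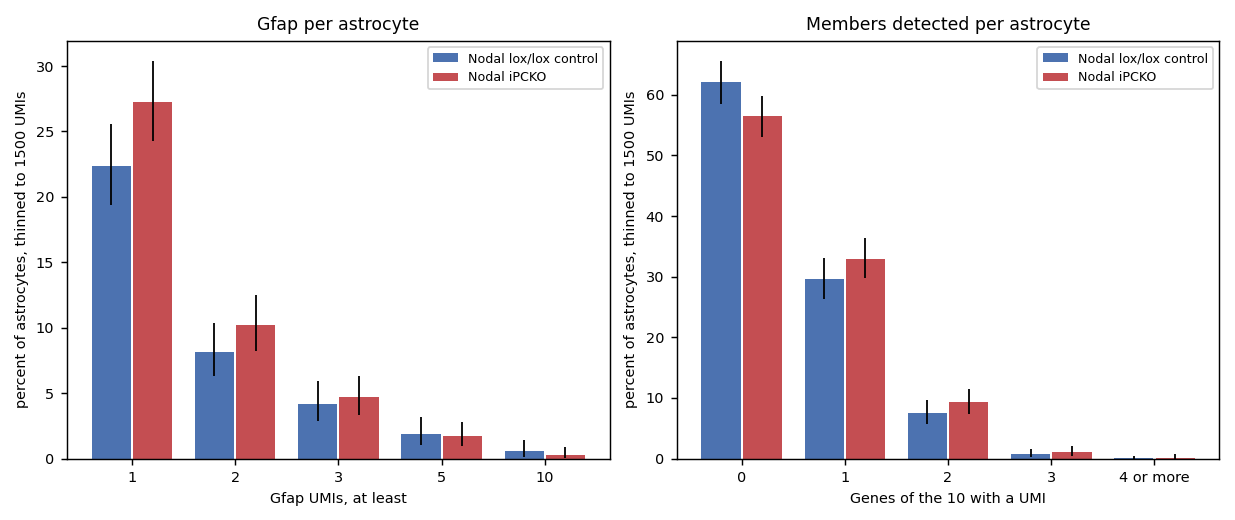
Percent of astrocytes (y axes, every cell thinned to 1500 UMIs) with at least a given number of Gfap UMIs (left) and with a given number of the 10 genes detected (right), with Clopper-Pearson 95% intervals. Cells with at least 1 Gfap UMI make up 22.4% of control and 27.2% of Nodal iPCKO astrocytes, and the intervals of the 2 libraries overlap at every number shown in both panels.

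Vim, the filament protein of mesenchymal, vascular and immature glial cells, had 130 (122 to 138) CPM in control and 126 (119 to 134) CPM in iPCKO astrocytes. The log2 ratio was -0.04 (-0.16 to 0.08). Thinned shares of astrocytes with a Vim UMI were 14.2% and 13.9%. Free RNA alone was estimated to give 28.7 and 47.2 of these CPM, and the astrocytes that also met the marker rule of another type, 26 in control and 36 in iPCKO, held 250 of 1009 and 385 of 1167 Vim UMIs. Without those cells Vim was at 103 and 89.7 CPM, and with free RNA subtracted at 101 and 79.1 CPM. Vim was found more often in thinned astrocytes with Gfap (21.7% and 18.5%) than in those without (11.8% and 12.3%).

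Nes, a filament protein of neural progenitors and of vascular cells, had 9.40 (7.37 to 11.8) CPM in control and 14.0 (11.7 to 16.6) CPM in iPCKO astrocytes, from 73 and 129 UMIs. The log2 ratio was 0.57 (0.14 to 1), just under 1.5-fold. Free RNA alone was estimated to give 4.81 and 9.24 CPM, and with it subtracted the levels were 4.59 and 4.72 CPM. The same estimate exceeded the count of Cp in iPCKO astrocytes, so that it can take away too much. Without the astrocytes that also met the rule of another type Nes had 6.11 and 9.64 CPM, a log2 ratio of 0.66, past 1.5-fold. Nes was higher in dividing astrocytes, those with at least 3 of 6 cell division genes, at 59.2 CPM in 6 control cells and 73.7 CPM in 19 iPCKO cells, than in the other astrocytes, at 8.85 and 12 CPM. The summed endothelial markers, all 6 of which were detected in astrocytes of both libraries, had 119 CPM in control and 215 CPM in iPCKO astrocytes, and their part in the Nes difference was not tested beyond these settings.

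Among the secreted proteins, Serpina3n, an acute-phase inhibitor of serine proteases, had the clearest difference in astrocytes. It had 20.4 (17.3 to 23.8) CPM in control and 36.1 (32.4 to 40.2) CPM in iPCKO astrocytes, from 158 and 334 UMIs, and the intervals did not overlap. The log2 ratio was 0.83 (0.55 to 1.11). A Serpina3n UMI was found in 121 control astrocytes (16.5%, 13.9 to 19.4) and in 203 iPCKO astrocytes (24.4%, 21.5 to 27.4). Thinned to 1500 UMIs the shares were 2.85% (1.78 to 4.34) and 4.86% (3.45 to 6.48), and thinned to 3000 UMIs 5.69% (4.06 to 7.67) and 9.30% (7.44 to 11.6). The 5 cells with the most UMIs held 11.4% and 10.2% of them, so that no few cells made up most of the counts. Free RNA was estimated to give 0.11 and 0.15 CPM, and no Serpina3n UMI was found in microglia, pericytes or fibroblasts of either library.

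Timp1, an inhibitor of matrix metalloproteinases, had 5 UMIs in control and 22 in iPCKO astrocytes, or 0.64 and 2.38 CPM, a log2 ratio of 1.89 (0.45 to 3.64). Of the 22 UMIs, 13 lay in 1 cell and 77.3% in 5 cells, and without the 5 cells of each library with the most Timp1 UMIs 0 were left in control and 5 in iPCKO astrocytes. Lcn2, lipocalin 2, which binds iron-carrying siderophores, had 1 and 4 UMIs in astrocytes. Neither gene was thus measured in more than a handful of astrocytes.

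Cp, ceruloplasmin, a copper-carrying ferroxidase, had 6.44 (4.78 to 8.49) CPM in control and 3.14 (2.10 to 4.51) CPM in iPCKO astrocytes, from 50 and 29 UMIs. The log2 ratio was -1.04 (-1.75 to -0.35). Most of these UMIs came from the astrocytes that also met the rule of another type: 44 of 50 in control and 22 of 29 in iPCKO. Without those cells Cp had 0.81 and 0.80 CPM, and without the 5 cells with the most Cp UMIs the log2 ratio turned to 0.057. Free RNA was estimated to give 2.28 and 5.10 CPM, so the iPCKO level was below what free RNA alone would give. The summed fibroblast markers, all 6 of them detected, had 202 CPM in control and 120 CPM in iPCKO astrocytes.

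Among the membrane proteins, Cd44, the hyaluronan receptor, had 39.8 (35.5 to 44.5) CPM in control and 40.7 (36.7 to 45.0) CPM in iPCKO astrocytes, with a log2 ratio of 0.03 (-0.19 to 0.25). Thinned shares were 5.32% and 5.21%. Its level in dividing astrocytes was 166 and 127 CPM, against 38.4 and 37.8 CPM in the others. S1pr3, a receptor of sphingosine-1-phosphate, had 2.7 (1.67 to 4.13) and 4.87 (3.55 to 6.51) CPM, from 21 and 45 UMIs, with a log2 ratio of 0.85 (0.07 to 1.67). Of these UMIs, 12 in each library came from the astrocytes that also met another rule, and without those cells the levels were 1.22 and 3.79 CPM. Free RNA was estimated to give 0.91 and 1.5 CPM. Steap4, a metalloreductase of iron and copper, had 0 UMIs in control and 5 in iPCKO astrocytes, 4 of them in cells that met another rule.

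**Figure D4:**
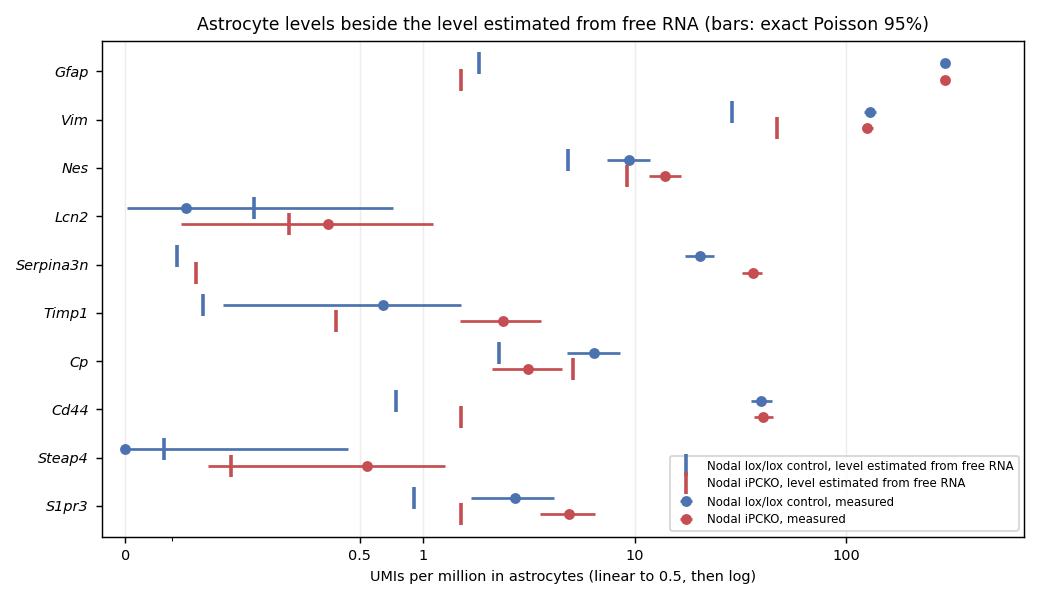
Measured level of each member in astrocytes (points, with the exact Poisson 95% interval) and the level estimated from free RNA (vertical marks), in CPM on an axis that is linear to 0.5 and then logarithmic, with control in blue and Nodal iPCKO in red. Gfap, Serpina3n and Cd44 lie far above the marks, Nes lies at 9.40 and 14.0 against 4.81 and 9.24, and Cp of iPCKO lies below its mark.

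Counted over all 10 genes, 38.1% (34.5 to 41.6) of control and 43.2% (39.8 to 46.7) of iPCKO astrocytes had a UMI of at least 1 member after thinning to 1500 UMIs, a difference of 5.10 percentage points (0.21 to 10.1). Free RNA alone, in which the 10 genes together had 1045 and 1072 CPM, was estimated to give such a UMI to 5.82% of control and 9.59% of iPCKO astrocytes at this depth, and its part in the difference was not tested. Cells with 2 members made up 7.52% and 9.29%, and cells with 3 made up 0.70% and 1.13%. Co-detection in 1 cell was therefore rare at this depth in both libraries. At 3000 UMIs the shares with at least 1 member were 56.2% and 61.3%.

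Where each member was found differed strongly between genes. Gfap UMIs lay in astrocytes to 97.9% in control and 96.5% in iPCKO, and Serpina3n UMIs to 92.4% and 89.3%. Of the 7 cell types neurons came second for Serpina3n, at 6.10 and 6.20 CPM, with intervals below those of astrocytes in both libraries. Among the 7 cell types Cd44 was highest in smooth muscle cells (54.9 and 50.8 CPM) and next in astrocytes, with overlapping intervals. Barcodes that met no marker rule held 25.4% and 32.7% of its UMIs, and these were 168 of their 899517 and 383 of their 1247711 UMIs. That is a larger part than in smooth muscle cells, with 26 of 473504 and 27 of 531173 UMIs. The barcodes that met no rule had a median of 2229 UMIs and 33.9% mitochondrial UMIs in control and of 2556 UMIs and 11.0% mitochondrial UMIs in iPCKO.

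The other members were mainly genes of the vessel wall and its surroundings. Vim was highest in smooth muscle cells, at 3311 and 3859 CPM, followed by endothelial cells at 1541 and 1677 CPM, and only 4.75% and 3.03% of its UMIs lay in astrocytes. Nes was highest in pericytes (257 and 278 CPM) and endothelial cells (245 and 223 CPM), whose intervals overlapped in the control library but not in iPCKO. Steap4 and S1pr3 were highest in pericytes, which held 79.8% and 75.4% of Steap4 UMIs and 77.3% and 78.0% of S1pr3 UMIs. Cp was highest in fibroblasts in the control library (331 CPM) and in pericytes in iPCKO (257 CPM), where the intervals of the 2 types overlapped. Timp1 was highest in fibroblasts, at 45.7 and 79.5 CPM. Lcn2 was highest in endothelial cells, at 11.3 and 18.8 CPM, which held 106 of its 195 UMIs in control and 310 of 343 in iPCKO. A further 81 UMIs of the control library came from 1 barcode that met the rule of neutrophils, cells that store the protein in their granules, and 24 of iPCKO from barcodes that met no rule.

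The genes whose level followed each member most closely over the 14 groups of 7 cell types and 2 libraries were found by the correlation of log2(CPM + 1). They were Btbd17, Timp4 and Grin2c for Gfap (r = 0.992, 0.990 and 0.990), Fbxo2, Sox2 and Cdh10 for Serpina3n (0.990, 0.984 and 0.980), and Gm20458, Bmpr1a and Tead3 for Cd44 (0.946, 0.942 and 0.924). For Vim they were Rhoj, Cavin1 and Rab13 (0.984, 0.979 and 0.974), for Nes Myl12a, Spata6 and Sav1 (0.986, 0.972 and 0.972), for Cp Scarf2, 9530068E07Rik and Gm56906 (0.948, 0.943 and 0.942), and for S1pr3 Slc19a1, Pla2r1 and Gprc5c (0.991, 0.983 and 0.983). Groups of 1 library share their depth and free RNA, and the values describe these 14 groups.

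In microglia, the immune cells of the brain, 3 members were more than 1.5-fold higher in Nodal iPCKO, of 5 with at least 20 UMIs, beside 7.47% of all genes. Nes had 36.9 (32.0 to 42.3) CPM in control and 90.1 (84.2 to 96.3) CPM in iPCKO microglia, from 205 and 869 UMIs, with a log2 ratio of 1.29 (1.07 to 1.51). A Nes UMI was found in 17.2% (14.7 to 19.9) of 862 control and 34.1% (31.6 to 36.7) of 1393 iPCKO microglia, and in 5.01% and 11.2% after thinning. Cp had 13 and 27.6 CPM (log2 ratio 1.09, 0.71 to 1.49), and Cd44 6.39 and 15.1 CPM (1.24, 0.69 to 1.79). Vim did not follow them, at 21.4 and 18.9 CPM, with a ratio of -0.18 (-0.52 to 0.16). None of the 5 lay more than 1.5-fold lower, beside 11.7% of all genes, and the median was 1.08 over the 5 and -0.07 over all genes.

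Nes in microglia lay above its level from free RNA in both libraries. Free RNA was estimated to give 3.67 and 3.17 CPM of Nes in microglia. Per UMI of Vim there were 1.72 and 4.77 Nes UMIs in microglia, against 0.167 and 0.196 in free RNA and 0.159 and 0.133 in endothelial cells. Dividing microglia made up 5.10% of control and 9.98% of iPCKO microglia, and Nes was higher in iPCKO both in these cells (61.0 and 142 CPM) and in the others (35.2 and 81.5 CPM). The summed endothelial and pericyte markers, of which none was at 0, had 89.3 and 95.1 CPM in control and 65.2 and 22.6 CPM in iPCKO microglia. The highest pericyte marker alone had 82.3 CPM in control and 15.7 CPM in iPCKO microglia. The part of RNA from other cells in the Nes values was not tested beyond these measurements.

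In endothelial cells the 3 secreted members with at least 20 UMIs were all more than 1.5-fold higher in Nodal iPCKO, out of 6 members measured, beside 4.74% of all genes. Lcn2 had 11.3 (9.27 to 13.7) and 18.8 (16.8 to 21) CPM, a log2 ratio of 0.73 (0.41 to 1.07). Timp1 had 8.22 (6.49 to 10.3) and 14.7 (12.9 to 16.7) CPM, a ratio of 0.84 (0.46 to 1.23). Cp had 21.7 (18.8 to 24.9) and 42.7 (39.6 to 46.0) CPM, a ratio of 0.98 (0.75 to 1.21). Each of the 3 was found in a larger share of cells, for Cp in 13.8% of control and 23.1% of iPCKO endothelial cells, at median depths of 9833 and 9930.5 UMIs. The filament genes moved little, with log2 ratios of 0.12 (0.09 to 0.15) for Vim and -0.13 (-0.21 to -0.05) for Nes. None lay more than 1.5-fold lower, beside 8.34%, and the median ratio was 0.43 over the 6 members and -0.05 over all genes. In the same cells the 6 red cell genes together had 2520 and 3544 CPM, the 6 astrocyte markers 56.6 and 31.6 CPM, with none at 0, and the 6 neutrophil markers 4.70 and 2.25 CPM, with 0 and 2 of them at 0. Of 9 measured genes of astrocyte homeostasis 5 were past 1.5-fold lower. The part of RNA from other cells in these ratios was not tested.

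In pericytes, 2 of 7 members were more than 1.5-fold higher, beside 6.93% of all genes. Timp1 had 1 UMI in control and 28 UMIs in iPCKO pericytes, the latter in 21 of 435 cells (4.83%), with a log2 ratio of 4.23 (1.63 to 9.58). It reached the minimum of 20 UMIs only through the iPCKO library, so its place in the count is partly set by that minimum. Cd44 had 20.2 (14.2 to 27.8) and 36.5 (29.7 to 44.3) CPM, a ratio of 0.86 (0.30 to 1.44). The ratios of Vim, Steap4 and Cp were 0.51 (0.42 to 0.60), 0.47 (0.05 to 0.90) and 0.38 (0.19 to 0.56), all under 1.5-fold. Nes had a ratio of 0.11 (-0.05 to 0.28) and S1pr3 one of -0.15 (-0.27 to -0.02). The median was 0.47 over these 7 members and -0.01 over all genes. Mmp2, a matrix metalloproteinase whose family Timp1 inhibits, had 23.4 and 99.2 CPM in the same cells, a log2 ratio of 2.08. The 6 smooth muscle markers together had 1200 CPM in control pericytes, with 1 at 0, and 747 CPM in iPCKO pericytes, with none at 0. Of the 6 cell division genes 5 were past 1.5-fold higher, at 248 and 389 CPM in sum, and the part of both lists in the ratios of the members was not tested.

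Smooth muscle cells, fibroblasts and neurons were the smaller classes. None of 5 members passed 1.5-fold in the 53 control and 68 iPCKO smooth muscle cells, beside 9.42% higher and 13.9% lower of all genes. In the 87 and 114 fibroblasts 1 of 7 members was past 1.5-fold higher, beside 9.5% of all genes, and 1 lower, beside 9.04%. Timp1 was higher, at 45.7 and 79.5 CPM (log2 ratio 0.80, 0.32 to 1.29). Cp was lower, at 331 and 220 CPM (-0.59, -0.81 to -0.37). The median was -0.21 over these 7 members and -0.01 over all genes. The 6 pericyte markers together had 2114 and 1164 CPM in these fibroblasts, with 1 at 0 in both, the 6 fibroblast markers 22179 and 16452 CPM, with none at 0, and the 6 cell division genes 59.8 and 173 CPM. The highest pericyte marker alone had 2066 CPM in control and 1125 CPM in iPCKO fibroblasts. The part of these genes in the ratios of Timp1 and Cp was not tested. In the 70 and 211 neurons 1 of 4 members was past 1.5-fold higher, Cd44 (0.68, -0.23 to 1.70), beside 6.89% of all genes. Another 2 of the 4, Vim (-1.07, -1.80 to -0.32) and Cp (-1.56, -2.44 to -0.66), were lower in neurons, beside 12.5%. Each rested on fewer than 50 UMIs in either library. The median was -0.55 over the 4 members and -0.04 over all genes. The neuron class differed in other genes as well: the 6 cell division genes together had 209 CPM in control and 10.6 CPM in iPCKO neurons, the 8 genes of immature astrocytes and radial glia 485 and 273 CPM, the 6 pericyte markers 70.1 and 23.4 CPM, with 1 and 0 of them at 0, and the 6 oligodendrocyte precursor markers 120 and 60.8 CPM, with 0 and 1 at 0. The highest pericyte marker alone had 60.3 CPM in control and 17.0 CPM in iPCKO neurons. The part of these genes in the ratios of Vim and Cp was not tested.

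Other genes of astrocyte reactivity were read in astrocytes from lists, and the plot of the ratios by list gives each gene. The counts stand beside 6.46% of all genes higher and 7.7% lower by 1.5-fold in astrocytes. Of the 4 further pan-reactive genes, 3 lay more than 1.5-fold higher. Osmr, a receptor of oncostatin M, had 131 and 286 UMIs (log2 ratio 0.87, 0.57 to 1.18). Hspb1, a small heat shock protein, had 7.50 and 13.1 CPM (0.80, 0.35 to 1.29). Cxcl10, an interferon-induced chemokine, had 10 and 171 UMIs (3.84, 2.93 to 4.93), and 62.6% of the iPCKO UMIs lay in 5 cells. The lists called A1 and A2 in the literature, after neuroinflammation and after ischemia, gave 4 of 11 genes higher and 1 lower, and 2 of 8 higher and 1 lower. Srgn (1.38, 1.04 to 1.73), Amigo2 (0.61, 0.39 to 0.82), Psmb8 (1.59, 0.34 to 3.04) and Iigp1 (6 and 15 UMIs, 1.07, -0.38 to 2.72) were higher in the first, in which Fbln5 was lower (-0.84, -1.61 to -0.08). Cd14 (1.45, 0.69 to 2.28) and Ptgs2, with 1 and 26 UMIs, were higher in the second, in which Emp1 was lower (-0.65, -1.18 to -0.13). C3, often used to mark the first list, had 0 and 2 UMIs. Cxcl10, Iigp1 and Ptgs2 reached the minimum of 20 UMIs only with their higher iPCKO counts. Their place among the higher genes of these lists is thus partly set by that minimum. In the same astrocytes the 6 endothelial markers together had 119 and 215 CPM and the 6 microglia markers 128 and 158 CPM, with none at 0, and 5 control and 11 iPCKO astrocytes also met the microglia rule. The 6 red cell genes had 16.6 and 29.4 CPM in sum, and 3 of the 4 with at least 20 UMIs were past 1.5-fold higher. Their part, and that of the larger estimated share of free RNA in iPCKO astrocytes, in the ratios of these lists was not tested.

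Of 17 receptors and factors that act upstream of the members, 5 were higher, Osmr again among them, and 1 lower. Stat3, the factor that drives Gfap in astrogliosis, had 175 and 284 CPM (0.70, 0.60 to 0.79), and its feedback inhibitor Socs3 had 16.1 and 25.8 CPM (0.68, 0.36 to 1). Smad3, a mediator of TGF-beta and Nodal signals, had a ratio of 0.69 (0.41 to 0.97), and Acvr1b, a receptor of activins and Nodal, one of -0.63 (-1.08 to -0.20). The median was 0.19 over the 17 genes. Of the 12 measured binding partners and substrates of the members, Has2, which makes the hyaluronan bound by Cd44, was higher (9 and 27 UMIs) and Mmp2 lower (-2.05, -3.15 to -1.14). The fibroblast markers, at 202 and 120 CPM in these astrocytes, and the 6 pericyte markers, at 130 and 100.1 CPM with none at 0, were lower as well, and their part in the ratio of Mmp2 was not tested. Of 9 measured relatives of the members none was higher and Ina, a neuronal filament protein, was lower (-1.99, -3.05 to -1.03). Single genes out of 12 or 9 lie close to the shares over all genes. The 6 neuron markers, none of them at 0, together had 55.1 CPM in control and 23.5 CPM in iPCKO astrocytes, and their part in the ratio of Ina was not tested.

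Genes of normal astrocyte work were read in the same way, beside 6.46% of all genes higher and 7.7% lower. Of 12 homeostatic genes, 1 passed 1.5-fold lower, which is close to the share over all genes, and none higher. The lower gene was S100b, a calcium-binding protein, with 167 and 101 CPM (-0.72, -0.84 to -0.60), and the median was -0.06. The 6 oligodendrocyte markers, none of them at 0, together had 447 CPM in control and 161 CPM in iPCKO astrocytes, and their part in the ratio of S100b was not tested. None of 8 genes of immature astrocytes and radial glia passed it, with the same median of -0.06. All 6 cell division genes were higher, with a median of 1.78, beside 6 dividing astrocytes in control (0.82%) and 19 in iPCKO (2.28%). Of 8 genes that respond to the dissociation of tissue, 3 were higher (Ier2, Dnajb1 and Ier3), with a median of 0.49. Of 11 genes that the study names in astrocytes beside Gfap, which were chosen on these samples and so are not independent evidence of a direction, 8 were higher, with a median of 0.81. Fos had 1780 and 3149 CPM and Egr1 488 and 1011 CPM. Both are immediate early genes that also respond to cell handling, and the part of handling in the values of the members was not tested.

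**Figure D5:**
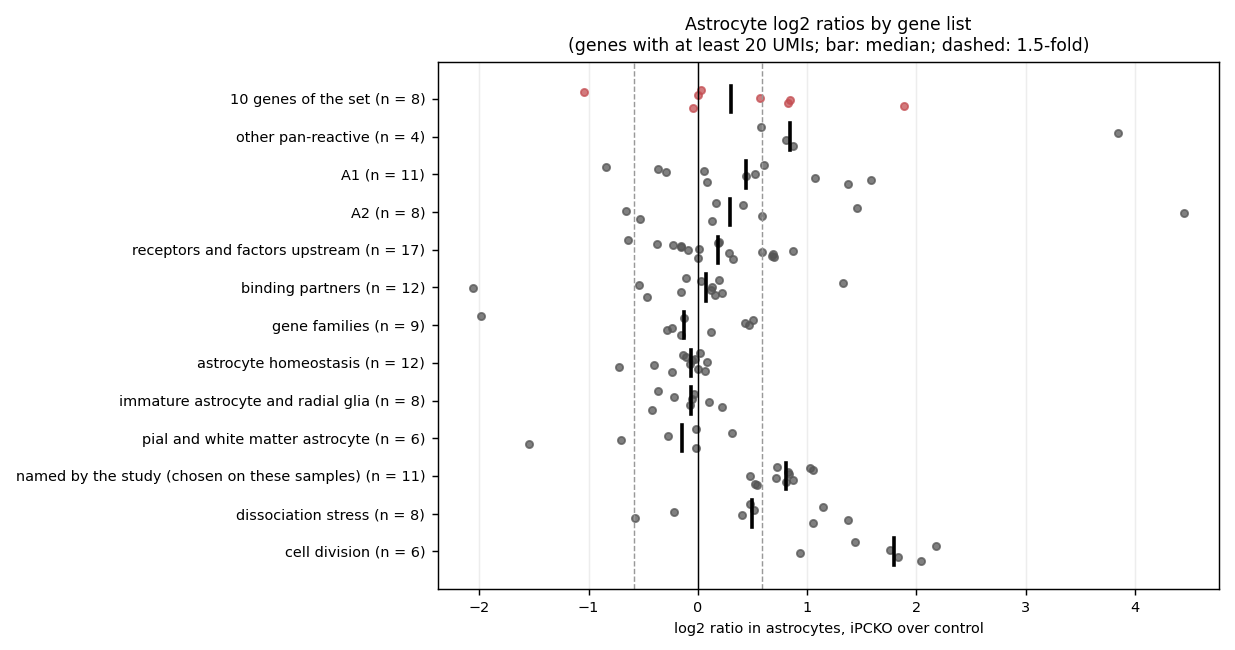
Log2 ratio of iPCKO over control in astrocytes (x axis) of each gene with at least 20 UMIs, by list (y axis), with the 10 genes of the set in red, a bar for the median and dashed lines at 1.5-fold. The set spreads from -1.04 (Cp) to 1.89 (Timp1) around a median of 0.30, whereas the homeostatic and immature lists center near 0.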

How the data were processed

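Single-cell transcriptomes of the cerebral cortex at P12 were captured on BD Rhapsody as 3′ tags, after removal of the meninges, papain and Liberase digestion and removal of myelin debris. The authors aligned and counted with STARsolo (STAR 2.7.10a) on GRCm39 with a Gencode annotation (2 releases are named in the study). At this step they kept every barcode without a cell filter and shared reads that map to several genes by expectation maximization. The deposited values are therefore estimated counts of UMIs, without normalization, of which 9.08% (control) and 9.21% (iPCKO) of entries were not whole. They were rounded to whole numbers for intervals, shares and thinning. For its own analysis the study removed low-complexity barcodes and cells with a high mitochondrial share or unusually high counts, and scored doublets. These steps were not repeated in the main setting here.

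Barcodes with at least 1500 UMIs were classed by markers of 14 cell types (6 each): an astrocyte had at least 4 of its 6 markers, and any other type was a barcode that was no astrocyte and met exactly 1 other rule, in classes of at least 20 cells per library. No doublet caller was run, and astrocytes that met another rule were kept and also left out. UMIs were summed per class and library and divided by all UMIs of the class (CPM), with exact Poisson intervals, conditional exact intervals for ratios and Clopper-Pearson intervals for shares (scipy 1.17.1, numpy 2.4.6, pandas 2.3.3). No p was computed, and 3 counts were the limit that a count of 0 allows. Counts past 1.5-fold and medians used ratios with an offset of 0.5 UMI. They took genes with at least 20 UMIs over both libraries together, a minimum that a gene can reach through the library where it is higher. Thinning reduced every cell to 1500 UMIs, by exact hypergeometric expectation for shares and by the mean of 20 seeded draws for joint counts. The free RNA share of a class was set by how far markers of 2 other types appear in it.

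The members and lists were chosen with earlier results of these data known. All 10 members were described, with at most the 4 genes with the most UMIs per list and direction among those past 1.5-fold, and the 3 genes with the most similar pattern for members with at least 50 UMIs in astrocytes. Scripts were tested on simulated counts.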

Additional observations from a re-analysis of the deposited data

Results flagged for a closer look

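The log2 ratio of Cp, iPCKO over control, had opposite signs between cell types, with intervals that excluded 0 on either side. It was 0.98 in endothelial cells and 1.09 in microglia, but -1.04 in astrocytes, -1.56 in neurons and -0.59 in fibroblasts. In pericytes, which held the most Cp UMIs of the iPCKO library, it was 0.38 (0.19 to 0.56), above 0 but under 1.5-fold. The difference between the types was not tested, since each genotype has 1 library. In astrocytes and neurons Cp rests on 50 and 29 and on 22 and 25 UMIs, and 76.0% of the UMIs of control astrocytes lay in 5 cells. In astrocytes, 44 of the 50 and 22 of the 29 UMIs lay in cells that also met the rule of another type, and without those cells Cp had 0.81 CPM in control and 0.80 CPM in iPCKO.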

How the results depend on the processing

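No paired analysis was possible because each genotype has 1 library. In astrocytes, Gfap, Vim, Serpina3n, Cd44, S1pr3 and Timp1 kept their side of 1.5-fold under the alternatives run, except that Timp1 had 0 UMIs left in control and 5 in iPCKO without the 5 cells of each library with the most UMIs of the gene, which gives only a bound. Cp and Nes did not. The count of members lower in iPCKO astrocytes was 0 instead of 1 when all 6 markers were required, when cells that met another rule were left out, when astrocyte markers had to have the most UMIs, with the mean of per-cell CPM, with thinned cells summed, and without the top 5 cells, where the Cp ratio reversed to 0.057. The ratio of Nes was 0.04 with free RNA subtracted and 0.13 with all 6 markers required, and it passed 1.5-fold under 5 settings, reaching 0.66 with the cells of another rule left out. Thinned sums gave no ratio for Timp1. Without a minimum of UMIs per gene the median of the members was 0.70 instead of 0.30 and the count higher was 5 instead of 3. Leaving out dividing astrocytes, a setting chosen after seeing the data, gave 0.43 for Nes and 0.83 for Serpina3n. Another scaling shifted all ratios by 0.01. The cause of these shifts was not tested beyond what each setting removes. Of the other values, 306 moved by less than their counting interval and 14 by more. Lcn2, Steap4 and Timp1 in astrocytes were too sparse for a statement on their absence.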
